A study of Rattus norvegicus with 16 samples.

Results

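Antioxidant enzymes turn reactive oxygen species and their products into harmless ones. Expression of 10 genes of this kind (Sod1, Sod2, Sod3, Cat, Gpx1, Gpx2, Gpx3, Gpx4, Nqo1 and Hmox1) was examined in the stomach and the middle intestine of suckling rats. The members were found by matching their symbols to the gene names that the arrays carry, which gave 12 probes for the 10 genes, among 19776 named genes in all. All 12 probes were well above background in the tissue channel on all 16 arrays, and all 10 genes passed the filter on dim probes, so no member was lost.

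Both tissues of suckling Wistar rats (Wistar Han in the study's methods) were compared between C and OH rats, which makes 4 groups with 4 arrays each. C rats were given saline by oral gavage and OH rats obestatin, a peptide that is cut from the same precursor as ghrelin, at 250 nmol/kg BW per dose. Dosing was 2 times daily and lasted from the age of 14 days to the age of 21 days in both. The pups stayed with their mothers and were suckled in both groups, treatments were given to whole litters, and tissue was taken on day 21. Each array carried the RNA of the tissue of 1 rat in Cy5 (red), and in Cy3 (green) a reference made by pooling RNA of the study's rats that was common to the arrays. No dyes were swapped. Values are log2 ratios of Cy5 to Cy3, where a step of 1 is a doubling; a ratio below 0 means less signal than the reference pool and includes any difference between the dyes, so ratios were compared between groups for the same probe, and no gene's level was set against that of another gene.

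Superoxide dismutases convert superoxide to hydrogen peroxide, in the cytosol (Sod1), in the mitochondria (Sod2) and outside the cell (Sod3). Catalase (Cat), a peroxisomal enzyme, splits hydrogen peroxide, and glutathione peroxidases reduce it with glutathione. Gpx1 is the cytosolic form found in most tissues, Gpx2 is the gastrointestinal epithelial form, Gpx3 is secreted into plasma, and Gpx4 reduces lipid peroxides in membranes. Nqo1 reduces quinones and Hmox1 breaks down haem, and both are textbook targets of the transcription factor Nrf2, which is encoded by Nfe2l2.

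The probes are printed for the genes on which the comparisons turn, namely the member with the widest difference between the tissues in each direction, the member whose probes disagreed and the member with the largest difference between OH and C in stomach. Each is 60 bases long, is written in the sense of the mRNA from 5′ to 3′ and is taken from the deposited files, and coordinates are rn4 positions given by the array's design. The capitals at the end of the Gpx2 probe mark an in-frame stop codon, so that this probe lies at the end of the coding sequence, and no other letters are marked.
Nqo1 (chr19:37251727-37251786, minus strand, from base 816 of NM_017000): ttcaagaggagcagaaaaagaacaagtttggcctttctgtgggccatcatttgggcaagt
Gpx2, dimmer probe (chr6:99372734-99372793, minus strand, from base 634 of NM_183403): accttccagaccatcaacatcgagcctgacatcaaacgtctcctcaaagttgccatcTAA
Gpx4, dimmer probe (chr7:11163817-11163876, minus strand, from base 517 of NM_001039849): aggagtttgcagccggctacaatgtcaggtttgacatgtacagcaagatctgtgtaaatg
Hmox1 (chr19:13969336-13969395, plus strand, from base 922 of NM_012580): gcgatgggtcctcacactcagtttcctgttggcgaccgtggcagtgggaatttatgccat

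Gpx2 and Gpx4 each had a second probe, from base 945 of the Gpx2 mRNA and from base 919 of the Gpx4 mRNA. Both of these hold the polyadenylation signal AATAAA, lie nearer to the 3′ end than the printed probes and were the brighter of each pair. The Cat probe spanned 1945 bases and the Gpx3 probe 1468 bases of the rn4 genome, so that each crosses an exon junction. The design places the Gpx1 probe on an unplaced part of chromosome 16. The probes of Gpx1 and Hmox1 were printed at 10 spots on every array, and the standard deviation of the log2 ratio between these spots had a median of 0.03 for Gpx1 and of 0.07 for Hmox1, with highest values of 0.04 and 0.12 on a single array.

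Several facts of the arrays touch these results. Each group lay on a slide of its own, and the slides of the OH groups were scanned on one day and those of the C groups on another, so that treatment, slide and scan day cannot be told apart. All 12 tested markers of the stomach mucosa passed the test as higher in stomach than in middle intestine in C and in OH. Of 14 enterocyte markers 12 passed as lower in C and in OH, and 1 passed as higher in C and 0 in OH. By most of these markers the arrays carried the pattern of their labelled tissues. Striated muscle genes stood apart in C stomach: the mean log2 ratio of 15 such genes was 3.21, 2.86 and 3.65 in replicates 1, 3 and 4, against -0.94 in replicate 2 and -0.56 to 0.52 in OH stomach. The 9 pancreas genes tested had a median of -0.58 in C stomach and of -3.29 in C middle intestine, and smooth muscle genes a median of -2.02 in C stomach and of -0.53 in OH stomach. In whole tissue, fewer cells of a type and less RNA per cell cannot be told apart.

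The first question was whether obestatin changed these enzymes. None of the 10 genes passed the test for OH against C in stomach, where 0% of the 14527 genes tested passed, and none did so in middle intestine, where 0.234% of genes passed (limma with Benjamini-Hochberg adjustment over all probes, threshold 0.05, 1 probe per gene). The procedure of the study's methods, which ends in Tukey's HSD, called no member in either tissue. The share of all genes called by that procedure was not counted, and the limma shares do not apply to it. At an unadjusted p under 0.05 there was 1 member in stomach, Hmox1, and 1 in middle intestine, Cat, against 10.8% and 9.31% of all genes. In both tissues 5 of the 10 members had a higher and 5 a lower mean in OH. The median difference of the members was 0.03 on the log2 scale in stomach and 0.03 in middle intestine, beside 0.00 and -0.02 over all genes. No member had OH arrays entirely outside the range of the C arrays, against 7.09% of genes in stomach and 5.25% in middle intestine. The difference between the responses of the tissues passed the test for no member, with 0% of genes passing, and at an unadjusted p under 0.05 it also held no member, against 5.92% of genes.

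**Figure D1:**
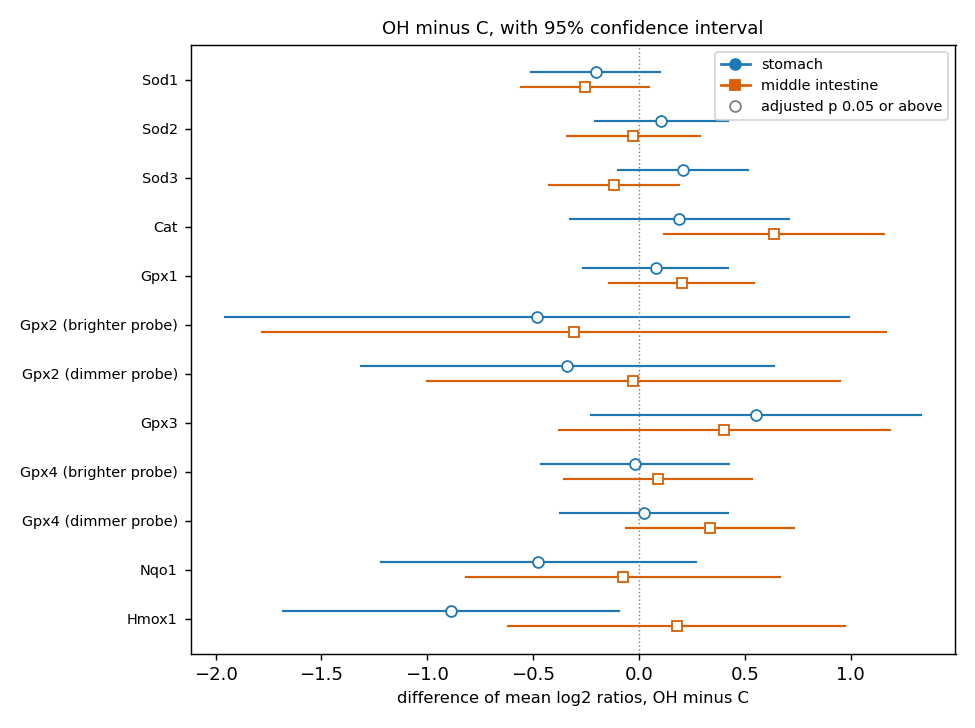
Difference of the mean log2 ratio between OH and C (horizontal axis) for each probe of the antioxidant enzymes, in stomach (circles) and in middle intestine (squares), with the 95% confidence interval of the limma fit, 4 arrays per group. Every symbol is open, since no adjusted p was under 0.05; the intervals of Hmox1 in stomach, from -1.68 to -0.09, and of Cat in middle intestine, from 0.12 to 1.16, lie to one side of 0.

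Hmox1, the inducible haem oxygenase, showed the largest difference in stomach. Its log2 ratios were -0.69, -2.32, -0.74 and -1.35 in C stomach and -2.35, -2.09, -2.14 and -2.07 in OH stomach. The 4 OH arrays lay close together, and the C arrays were higher except replicate 2, which lay inside the OH range. The mean was lower in OH by a log2 ratio difference of -0.89 (SE 0.37), a 1.85-fold difference with an adjusted p of 0.44 in limma and p = 0.11 in an exact permutation test (two-sided, n = 4 and 4, for which the smallest possible p is 0.029). Replicate 2 of C stomach was also the array low in striated muscle genes. With C stomach represented by that array alone, which was then assumed to vary like the other groups, the Hmox1 difference was 0.16 (adjusted p = 0.97), and without replicate 2 it was -1.24 (adjusted p = 0.095). The part of muscle RNA in the Hmox1 values was not tested. Markers of erythroid cells and macrophages, which also handle haem, had median log2 differences of -0.13 and 0.11 in stomach, over 7 and 9 genes tested. None of these passed, but 0% of all genes did, so the calls cannot tell about these cells. The part of these cells in the Hmox1 values was not tested. Under array weights Hmox1 passed in stomach (-1.16, adjusted p = 0.039). The share of all genes passing under array weights was not counted, so this call has no background beside it. Without weights its unadjusted p of 0.031 in limma was under 0.05, as it was for 10.8% of genes.

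In middle intestine Hmox1 was -1.19, -1.97, -1.58 and -1.44 in C and -0.27, -1.63, -2.04 and -1.54 in OH. One OH array, replicate 1, was high, and the other OH arrays lay about the C range. The difference of 0.18 (SE 0.37) had a 95% interval from -0.62 to 0.97, and its direction changed without that array, to -0.19. The Hmox1 response differed between the tissues by -1.06 on the log2 scale (SE 0.53, adjusted p = 0.84), the smallest adjusted p of any member for this contrast.

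**Figure D2:**
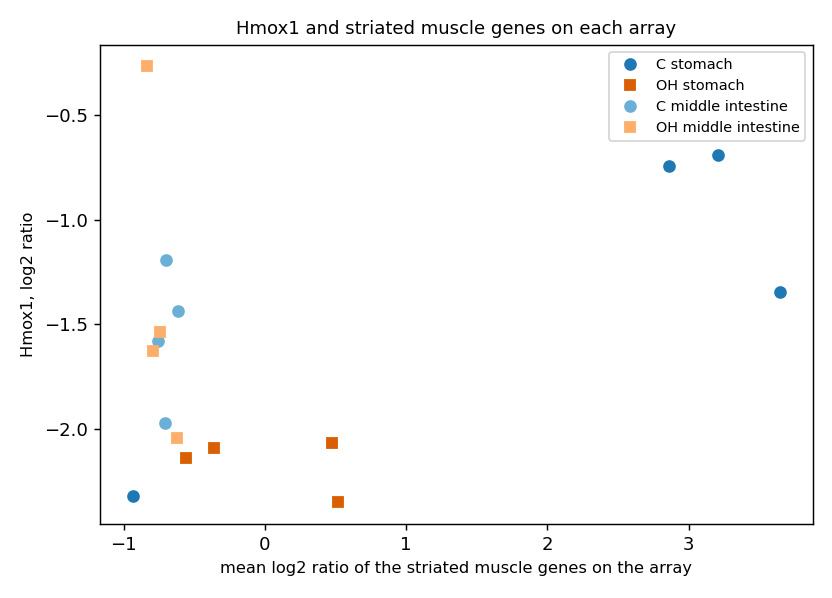
Log2 ratio of Hmox1 (vertical axis) against the mean log2 ratio of 15 striated muscle genes (horizontal axis) on each of the 16 arrays, with 1 point per array and the group given by symbol and colour. The 3 C stomach arrays between 2.86 and 3.65 on the horizontal axis have Hmox1 between -1.35 and -0.69, and C stomach replicate 2, at -0.94, has Hmox1 at -2.32 with the OH stomach arrays.

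Cat, which encodes catalase, showed the largest difference in middle intestine among the members. Its log2 ratios were -2.12, -1.91, -1.86 and -1.17 in C middle intestine and -1.15, -0.64, -1.77 and -0.94 in OH middle intestine. OH replicates 1, 2 and 4 lay above all C arrays, if only just for replicate 1, and OH replicate 3 lay among the C arrays. The mean was higher in OH by 0.64 (SE 0.24), a 1.56-fold difference (limma adjusted p = 0.34, exact permutation p = 0.057, n = 4 and 4). The difference was 0.48 to 0.85 when single arrays were left out, with no adjusted p under 0.13. Enterocyte markers had a median difference of 0.48, beside -0.02 over all genes, and 12 of 14 were above 0 in OH. None passed the threshold, beside 0.234% of all genes. The mean log2 ratio of these markers ran from -0.28 to 0.48 in C and from -0.59 to 1.51 in OH. OH replicate 3, the lowest of the OH arrays in Cat, was the lowest in these markers, and OH replicate 2 was the highest in both. Other arrays did not follow this order. OH replicate 1 had the markers at 0.83 and Cat at -1.15, and OH replicate 4 had them at 0.24 and -0.94. C replicate 3 was the highest C array in the markers, at 0.48, with Cat at -1.86. C replicate 4, the highest C array in Cat at -1.17, had the markers at 0.07. The part of enterocytes in the Cat values was not tested. In stomach Cat was -0.25, -0.16, -0.27 and -0.47 in C and -0.45, 0.12, 0.23 and -0.28 in OH, and the difference of 0.19 (SE 0.24) was within the scatter of the arrays.

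The remaining members differed between OH and C by less than their scatter allows to be told from 0. In both tissues Gpx2 had the lowest of their differences, -0.48 in stomach and -0.31 in middle intestine, and Gpx3 the highest, 0.55 and 0.40. The Gpx2 value in middle intestine turned to 0.60 without replicate 1 of C middle intestine and to 0.02 without replicate 4 of OH. Gpx3, the secreted peroxidase, was far below the reference pool on every array, between -3.50 and -1.83, and its intervals reached up to 1.33 in stomach and 1.18 in middle intestine, so that a rise of over 2-fold was not shown to be absent. Sod1 was lower in OH by -0.20 (95% interval -0.51 to 0.10) in stomach and by -0.26 (-0.56 to 0.05) in middle intestine, and the exact permutation p in middle intestine was 0.057 with n = 4 and 4. For Gpx1 the interval was -0.26 to 0.42 in stomach, and it was -0.14 to 0.54 in middle intestine, and for Sod2 -0.21 to 0.42 and -0.34 to 0.29. The widest intervals were those of Gpx2, which began at -1.95 and ended at 0.99 in stomach and began at -1.78 and ended at 1.17 in middle intestine.

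Between the tissues the members differed far more. In C rats 6 of the 10 genes passed the test for stomach against middle intestine, beside 46.7% of all genes: 5 were higher in stomach (Nqo1, Gpx1, Sod3, Cat and Sod2), as were 22.8% of genes, and 1, Gpx2, was lower, as were 23.9%. In OH rats 6 members passed, beside 40.8% of genes, with 5 higher (20.3% of genes) and 1 lower (20.5%). Each of the 6 passed in both treatments with the same direction, which 33.8% of genes did. The median size of the difference was 1.02 for the members and 0.46 for all genes in C, and 0.91 and 0.40 in OH. The arrays of the tissues did not overlap for 6 members in C and 7 in OH, beside 45.2% and 37.7% of genes. Stomach and middle intestine of a treatment lay on different slides, so tissue and slide cannot be told apart either.

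**Figure D3:**
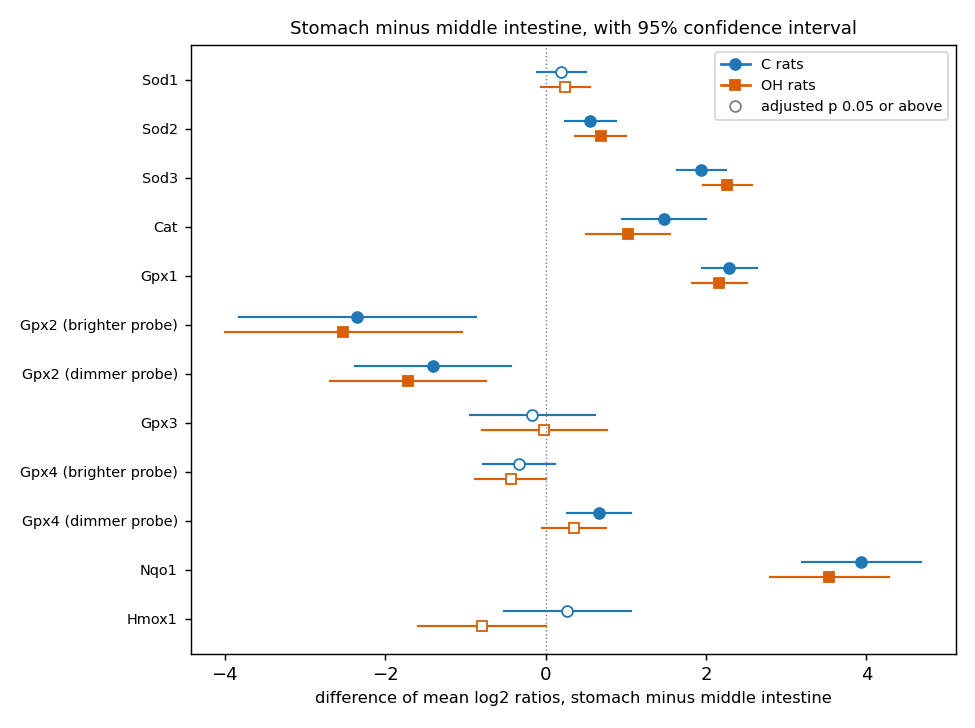
Difference of the mean log2 ratio between stomach and middle intestine (horizontal axis) for each probe, in C rats (circles) and OH rats (squares), with 95% confidence intervals from limma, 4 arrays per group, and filled symbols for an adjusted p under 0.05. Nqo1 lies farthest to the right, at 3.93 in C and 3.54 in OH, both Gpx2 probes lie to the left of 0, and the Gpx4 probes lie on opposite sides of 0.

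Nqo1, the quinone reductase, had the widest difference. Its log2 ratios were 2.09, 1.39, 2.06 and 0.89 in C stomach, 0.70, 1.44, 1.81 and 0.58 in OH stomach, -1.91, -2.45, -1.92 and -3.03 in C middle intestine and -1.98, -2.54, -2.22 and -2.88 in OH middle intestine. Every stomach array was thus above every intestine array. Nqo1 was 15.3-fold higher in stomach in C rats (log2 difference 3.93, SE 0.35, adjusted p = 5.1e-07) and 11.6-fold higher in OH rats (3.54, SE 0.35, adjusted p = 1.7e-06). The C stomach mean of 1.61 was above the OH stomach mean of 1.13, and the C and OH means in middle intestine were -2.33 and -2.40; within each tissue the groups overlapped.

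Gpx1, the common cytosolic peroxidase, was 0.35, 0.74, 0.28 and 0.03 in C stomach and 0.12, 0.34, 0.80 and 0.47 in OH stomach, against -1.88, -1.94, -2.03 and -1.90 in C middle intestine and -1.63, -1.98, -1.58 and -1.75 in OH middle intestine. It was 4.89-fold higher in stomach in C (log2 difference 2.29, SE 0.16) and 4.49-fold higher in OH (2.17, SE 0.16), with adjusted p of 4.4e-08 and 8.2e-08. The C intestine arrays lay within a log2 span from -2.03 to -1.88.

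Sod3, the extracellular superoxide dismutase, was 1.57, 1.45, 1.55 and 1.47 in C stomach and 1.88, 1.58, 1.48 and 1.94 in OH stomach, and -0.44, -0.76, -0.09 and -0.42 in C middle intestine and -0.72, -0.50, -0.59 and -0.37 in OH middle intestine. The stomach arrays again all lay above the intestine arrays, by 3.84-fold on average in C and 4.81-fold in OH (log2 differences 1.94 and 2.27, SE 0.14 each, adjusted p = 7.7e-08 and 1.6e-08). The other dismutases differed less. Sod2, the mitochondrial form, was higher in stomach by 0.56 in C (SE 0.15, adjusted p = 0.0071) and by 0.69 in OH (adjusted p = 0.0020), with ranges of 0.68 to 1.30 in C stomach, 0.93 to 1.29 in OH stomach, 0.31 to 0.64 in C middle intestine and 0.17 to 0.71 in OH middle intestine. Sod1, the cytosolic form, ran from -0.30 to 0.52 over all arrays and did not pass (0.20 in C and 0.25 in OH, SE 0.14, adjusted p = 0.28 and 0.19). Catalase was higher in stomach by 1.48 in C (SE 0.24, 2.78-fold, adjusted p = 0.00021) and by 1.03 in OH (2.04-fold, adjusted p = 0.0038).

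Gpx2, the gastrointestinal glutathione peroxidase, was the member higher in middle intestine. Its brighter probe read -0.07, -1.12, -0.37 and 0.08 in C stomach and -0.60, -1.19, -0.30 and -1.31 in OH stomach. In middle intestine it read 4.70, 1.26, 1.22 and 0.74 in C and 2.65, 1.90, 1.44 and 0.69 in OH. Every intestine array was above every stomach array, and replicate 1 of C middle intestine stood far above the rest. In log2 Cy5 that array read 17.634, against 14.535 to 15.427 on the other C intestine arrays. In log2 Cy3 it read 12.939, against 13.798 to 14.172, so both channels entered its ratio. The dimmer probe went the other way in log2 Cy3, at 12.645 there against 11.866 to 12.31. The difference of stomach from intestine was -2.35 in C (SE 0.69, 5.09-fold, adjusted p = 0.013) and -2.52 in OH (SE 0.69, 5.74-fold, adjusted p = 0.0097). Without C middle intestine replicate 1 the C difference was -1.44, the smallest under any setting, and it still passed, with adjusted p at most 0.037 over the arrays left out in turn; with C stomach represented by replicate 2 alone it was -3.10 and no longer passed (adjusted p = 0.084). The dimmer probe, whose sequence is printed above, gave -1.41 in C and -1.72 in OH (adjusted p = 0.021 and 0.0082). It also read highest on C middle intestine replicate 1, at 2.82 against 0.43 to 1.03 on the other C arrays, and the probes had a Pearson correlation of 0.99 over the 16 arrays, given as a description.

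**Figure D4:**
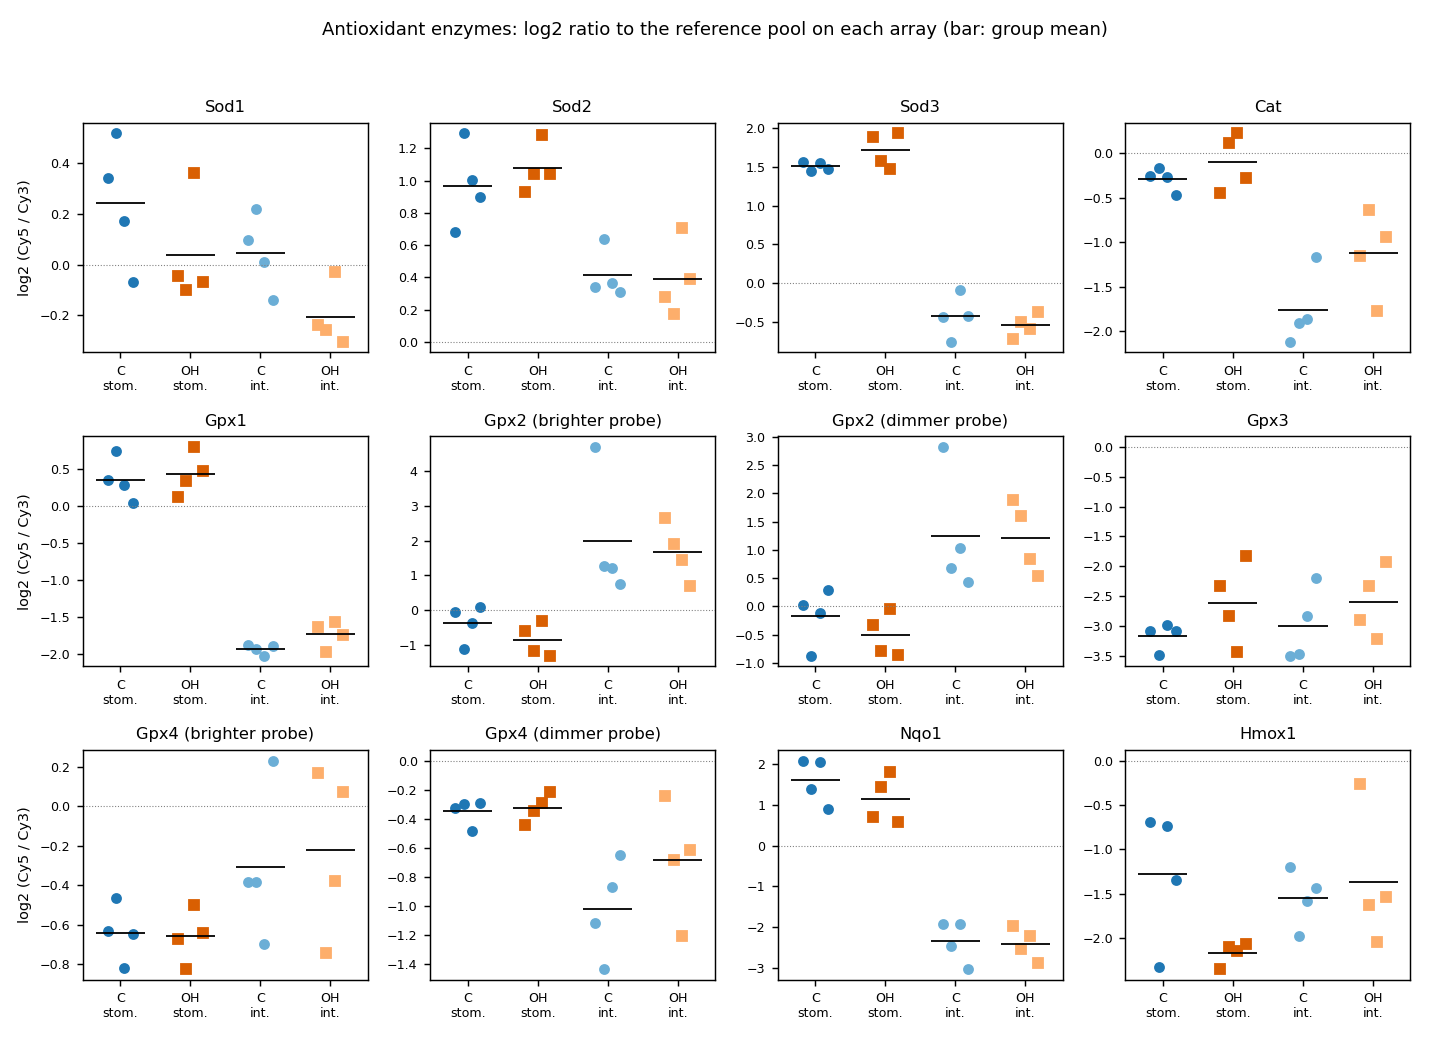
Log2 ratio of Cy5 to Cy3 (vertical axes, with a scale for each probe) on every array for the 12 probes of the antioxidant enzymes, with 1 panel per probe, 1 point per array and a bar at the mean of each group of 4 arrays. Nqo1, Gpx1 and Sod3 separate the stomach from the intestine (int.) arrays, Gpx2 does so in the opposite direction with C middle intestine replicate 1 at 4.70 for the brighter probe, and C and OH overlap in every panel within a tissue.

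The probes of Gpx4, the lipid peroxide reductase, did not agree. The brighter probe, near the 3′ end, was lower in stomach by -0.33 in C (SE 0.21, adjusted p = 0.21) and by -0.44 in OH (adjusted p = 0.11). The dimmer probe, which is a single spot on each array, was higher in stomach by 0.67 in C (SE 0.19, adjusted p = 0.0092) and by 0.36 in OH (adjusted p = 0.15). In C its values were -0.33, -0.30, -0.48 and -0.29 in stomach and -1.12, -1.43, -0.87 and -0.65 in middle intestine, without overlap. Over the 16 arrays the 2 probes had a Pearson correlation of -0.12. No direction is therefore given for Gpx4 between the tissues. Gpx3 did not pass either (-0.17 in C and -0.02 in OH, SE 0.36). Hmox1 did not pass in C (0.27, SE 0.37) or in OH, where it was lower in stomach by -0.79 (SE 0.37, adjusted p = 0.11); the OH arrays of the tissues did not overlap, although the highest stomach value, -2.07, lay next to the lowest intestine value, -2.04.

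By group mean the order was OH stomach, C stomach, C middle intestine, OH middle intestine for Sod2 and Sod3, and C stomach, OH stomach, C middle intestine, OH middle intestine for Nqo1. For Cat and Gpx1 it was OH stomach, C stomach, OH middle intestine, C middle intestine, and for Gpx2 the tissues changed places, with C middle intestine first and OH stomach last. C middle intestine came before OH middle intestine for Gpx2 through replicate 1 of C, without which OH was the higher by 0.60. In each of these 6 genes the arrays of the neighbouring groups did not overlap where the order passes from one tissue to the other, and overlapped between the C and OH neighbours within a tissue.

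Because the ratio joins 2 channels, each was also examined apart, in the processed signals. These were background subtracted and Lowess normalized, a step that adjusts the 2 channels of an array to each other. Before that step the median raw Cy3 signal was 340.8 to 376 on the OH stomach arrays and 189 to 191.3 on the C stomach arrays. The common reference was the same pool on every array, yet in stomach the Cy3 signal of all 10 members was higher on the OH than on the C arrays, by 0.16 to 0.49 on the log2 scale, where the median of all probes was 0.33 in Cy3 and 0.32 in Cy5. Cy3 values did not overlap between OH and C for 6 of the 10 members, beside 59.9% of genes, and Cy5 values for 3 (Sod2, Sod3 and Cat), beside 30% of genes. After the 75th percentile of each channel was subtracted, 5 members still did not overlap in Cy3, beside 39.8% of genes, and none in Cy5, beside 10.8% of genes. For Hmox1 in stomach the Cy5 signal was lower by -0.42 and the Cy3 signal was higher by 0.47 in OH, and after scaling these were -0.77 and 0.12. The scaled Hmox1 difference was thus larger in Cy5 than in Cy3. As the normalization ties the channels to each other, it cannot be assigned to 1 channel.

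In middle intestine the median raw Cy3 signal was 354.6 to 399.2 on the OH arrays and 188.2 to 195.3 on the C arrays. After processing, the reference signal moved less than in stomach (median of all probes 0.08) but unevenly. Processed Cy3 changes of the members ran from -0.25 for Cat to 0.30 for Sod2. Cy3 values did not overlap for 1 member, Nqo1, beside 25.6% of genes, and for 6 after scaling, beside 54% of genes, while Cy5 values did so for none, beside 5.09% unscaled and 7.41% scaled. For Cat the Cy5 signal was higher by 0.38 and the Cy3 signal lower by -0.25; after scaling the Cy5 difference was 0.24 (exact permutation p = 0.43, n = 4 and 4) and the Cy3 difference -0.38. The scaled difference of Cat was thus larger in Cy3 than in Cy5. Since the normalization ties the channels to each other, the Cat difference cannot be assigned to either of them. Between the tissues in C rats the Cy3 changes of the members ran from -0.32 to 0.10, while Cy5 of Nqo1 differed by 4.00, of Gpx1 by 1.97 and of Gpx2 by -2.24. In OH rats they ran from 0.02 to 0.42, with the highest for Sod3, whose Cy3 values did not overlap between the tissues (exact permutation p = 0.029, n = 4 and 4), beside a Cy5 difference of 2.69.

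**Figure D5:**
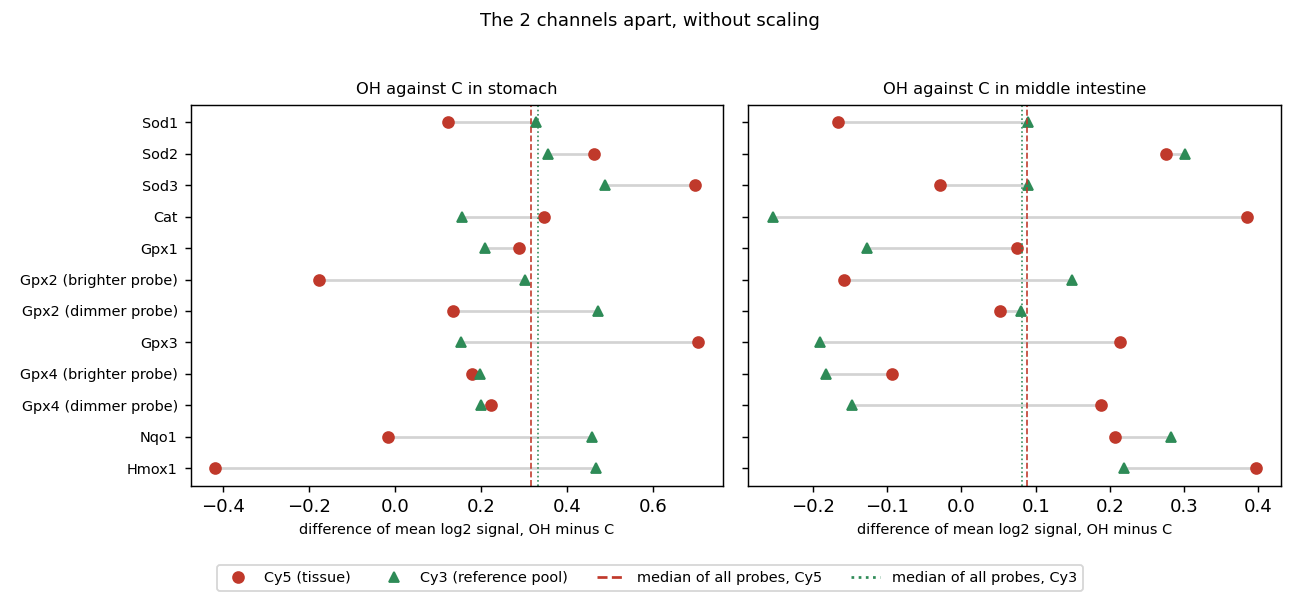
Difference between OH and C of the mean log2 signal (horizontal axis) in Cy5, the tissue (circles), and Cy3, the reference pool (triangles), for each probe in stomach (left) and middle intestine (right), without scaling, 4 arrays per group; dashed and dotted lines mark the medians of all probes. All triangles in the stomach panel lie above 0, between 0.16 and 0.49, and in the intestine panel Cat has its triangle at -0.25 and its circle at 0.38.

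Genes that work beside these enzymes were counted in lists. No gene passed for OH against C in stomach in any of the lists for thioredoxins and peroxiredoxins (17 genes tested), glutathione synthesis and recycling (11), regulators of the Nrf2 pathway (9), haem and iron handling (10), other antioxidant proteins (15) and sources of oxidants (12). Of all genes 0% passed in stomach and 0.234% in middle intestine. In middle intestine 1 gene of these lists passed, Hp, which encodes the haemoglobin-binding plasma protein haptoglobin. It was higher in OH by 0.58 (SE 0.11, 1.49-fold, adjusted p = 0.047), with group means of -3.97 in OH and -4.55 in C and no overlap. The adjusted p was just under the threshold. For Hp the channels were not examined apart, and no array was left out in turn. The median log2 difference of the lists in stomach ran from -0.55 for sources of oxidants to 0.13 for other antioxidant proteins, beside 0.00 for all genes. The mean log2 ratio of the sources of oxidants was 0.14, -0.72, 0.23 and 0.23 in C stomach replicates 1 to 4 and -0.74 to -0.34 in OH stomach. C stomach replicate 2, the array low in striated muscle genes, lay within the OH range, and the part of muscle RNA in this median was not tested.

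Between the C tissues 22.8% of all genes tested were higher in stomach and 23.9% lower, and the counts of the lists are given beside these shares. Of the thioredoxins and peroxiredoxins 6 of 17 were higher in stomach and none lower, with a median of 0.23, and the largest was Prdx5, a peroxiredoxin (1.17, SE 0.28, adjusted p = 0.0041). Of the glutathione genes 4 were higher and 1 lower. The highest was Slc7a11, the cystine transporter that feeds glutathione synthesis (2.78, SE 0.35, 6.87-fold), and the one lower was Ggt1, the gamma-glutamyltransferase of cell surfaces (-4.24, SE 0.32, 18.9-fold). Gclc (1.52) and Gclm (1.90), the subunits of the enzyme that starts glutathione synthesis, were also higher. The Gclm probe was well above background in Cy5 on only 1 of 4 C middle intestine arrays, so the size of its difference is uncertain. Of the Nrf2 regulators 3 were higher and 1 lower, led by Sqstm1, an autophagy adaptor that binds Keap1 (2.82-fold, adjusted p = 5.2e-06). The other two higher were Nfe2l2, which encodes Nrf2 itself (2.18-fold), and Maff, a small Maf protein (1.74-fold), and the one lower was Bach1, a repressor of Nrf2 targets (1.62-fold, adjusted p = 0.037), whose arrays overlapped between the tissues. Of the haem and iron genes 3 were higher and none lower, led by Blvrb, a biliverdin reductase (1.47, SE 0.13), beside Hpx (1.44), haemopexin, and Alas1 (0.77), which starts haem synthesis. Of the other antioxidant genes 3 were higher, with Mt2A, a metallothionein, at 1.72 (SE 0.31), and 3 lower, with Pon3, a paraoxonase, at -1.80 (SE 0.38). The others of these were Mt1a (0.85) and Msrb2 (0.58), both higher, and Nqo2 (-1.22) and Sepp1 (-1.15), both lower. Of the sources of oxidants 1 was higher and 3 were lower. The one higher was Duox2, a dual oxidase that makes hydrogen peroxide, at 2.94 (SE 1.08, 7.70-fold, adjusted p = 0.038), with overlapping arrays. Those lower were Xdh, xanthine dehydrogenase, at -1.82 (SE 0.32), Noxo1 at -1.22 and Ncf4 at -0.60, the last with overlapping arrays. The genes of these counts that the naming rule leaves out, Duox2 and Bach1 among them, were named after their values were seen.

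The genes whose pattern over the 16 arrays was most like that of Nqo1, by Pearson correlation among 14526 other genes, were B3gnt3 (0.99), Best4 (0.99) and Cyp2c23 (0.99). The arrays of both tissues enter these correlations, and all values share the reference pool and the arrays. B3gnt3 ran from 1.13 to 2.65 in stomach and from -1.44 to -0.35 in middle intestine. For Gpx2 they were Socs3 (0.97), Chrnb4 (0.94) and Tap1 (0.93). These 3 were chosen with C middle intestine replicate 1 included, the array on which Gpx2 read 4.70. High values on that array are therefore in part built into the choice. Socs3, an inhibitor of cytokine signalling, read 1.33 there against 0.16 to 0.50 on the other C intestine arrays. Chrnb4 read 2.365 there against 0.31 to 0.85. Tap1, a peptide transporter of antigen presentation, read 1.80 there against 0.25 to 1.22. Without that array the genes most like Gpx2 were Fam117b, Unc5cl and Ptprh, each at 0.96 or 0.97, a choice made after seeing the data, and Socs3 was at 0.94.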

How the data were processed

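RNA of the stomach and middle intestine was measured on 16 arrays in the groups of the labels. The deposited files hold, per array, Agilent Feature Extraction output (version 10.10.1.1 in the file headers, 10.7.3.1 in the labels and methods) with spot intensities in both channels, background subtracted and Lowess normalized within the array, not scaled between arrays. A further deposited table gives log10 ratios, equal to the scanner output on 15 arrays and, on 1 whose file was saved again, to its rounding. Outlier spots were left out, log2 ratios of spots of a probe were averaged, and 21174 of 30367 probes passed a filter that asked for Cy5 well above background on each array of at least 1 group. Group means were fitted in limma 3.58.1 (R 4.3.3), with p-values adjusted by Benjamini-Hochberg over these probes. Counts of genes used the brightest probe in Cy5. The fit was tested on simulated data with 200 changed probes. For OH against C it recovered 56.5% of log2 changes of 1 in stomach and 53.5% in middle intestine. Of log2 changes of 2 it recovered 92% and 93%. False calls beside these numbered 11 in stomach and 6 in middle intestine at a change of 1. At a change of 2 they numbered 14 and 5. For single values the exact permutation test was two-sided. The labels do not say which litter a rat came from, so rats may share one and p-values measure the spread between these arrays. Correlations between arrays of a group were 0.71 to 0.94, and the number of arrays limits the precision. Named were all members with every probe, list genes that passed for OH against C, per list the gene with the largest difference each way between the C tissues among those that passed without overlap, and the 3 genes most like Nqo1 and Gpx2. The members and lists were chosen with earlier results of these data known. Alternatives covered background correction, scaling, single channels, filters, outliers, which arrays were fitted, a replicate block, moderation, weights, the methods' ANOVA with Tukey's test, the threshold, probe choice and leaving out each array. The real-time PCR and other assays of the study were not analysed here. Symbols and coordinates are those of the array design (rn4).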

Additional observations from a re-analysis of the deposited data

Results flagged for a closer look

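For each of the 12 probes and 4 groups, 48 sets of 4 arrays, the most extreme array was compared with its neighbour by Dixon's criterion for 4 values, which chance alone meets in about 1 set in 20. In 4 sets an array stood apart. Gpx2, brighter probe, read 4.70 on C middle intestine replicate 1, with 1.26 next to it. Sod1 read 0.36 on OH stomach replicate 3, with -0.05 next to it. Sod2 read 0.64 on C middle intestine replicate 2, with 0.36 next to it. Gpx4, dimmer probe, read -0.48 on C stomach replicate 3, with -0.33 next to it. The causes were not tested. No member's response to OH passed the test of a difference between the tissues, and none had all OH arrays above C in one tissue and all below C in the other.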

How the results depend on the processing

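The counts of members called between the tissues, 6 in C and 6 in OH, ran from 5 to 6 in C and from 6 to 7 in OH over the alternatives, and without each array of the groups compared in turn they were 6 in C and 6 to 7 in OH. The counts of 0 for OH against C and for the difference of the responses stayed at 0, except 1 in stomach with array weights (Hmox1), and 1 in stomach and 1 in middle intestine at an unadjusted p under 0.05; without each array in turn they were 0. Except at the unadjusted p, the shares of all genes called were not counted under the alternatives. With the replicate block the counts were 0, 0, 6, 6 and 0, and no call of a member changed. That block joined same-numbered arrays of all 4 groups, and so C with OH rats, and was no test of pairs of tissues from 1 rat. Same-numbered arrays had deviations correlated at 0.058 to 0.25 between the C tissues and at -0.12 to 0.32 between the OH tissues. The array of the same number had the highest correlation in 3 of 4 cases in C and in 2 of 4 in OH. The labels do not say whether same-numbered arrays share a rat. The numbers were not taken as pairs, and a pairing is not excluded. Of single-channel counts of members without overlap between OH and C, Cy5 in stomach went from 3 to 0 with the 75th percentile and to 0 with quantile normalization, and Cy3 in middle intestine from 1 to 6 with either. Gpx4 passed between the OH tissues, lower in stomach, with background-subtracted signals (-0.57), with array weights (-0.55) and without OH middle intestine replicate 2 (-0.61). With C stomach represented by replicate 2 alone, an alternative chosen after seeing the data, 5 members passed between the C tissues, as Gpx2 was lost. No called difference of a member changed direction; of differences not called, 14 values changed sign in stomach and 21 in middle intestine for OH against C over all settings, beside 235 and 219 that kept sign and call, so no direction is claimed for them. The cause was not tested. The number of arrays limits the precision: with 4 a group, the SE of OH against C was 0.14 for Sod1 and 0.69 for Gpx2 on the log2 scale.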
